A study of Arabidopsis thaliana with 24 samples.

Results

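AT3G49160 is a gene of Arabidopsis thaliana annotated to the pyruvate kinase family, and it was read by a single probe set on the Affymetrix ATH1 array. The deposited table held 17810 probe sets besides controls, and shares of all probe sets below are over these. AT3G49160 is 1 of 9768 genes that a probe set named alone. It was chosen by its log2 changes on loss of iron, which were large falls in roots and in leaves. That fall is therefore given below as a description with no test, and tests are kept for differences between genotypes and between tissues. Those tests use the same arrays as the falls, so they are not independent of the choice of the gene. The RNA came from 13-day-old plants of ecotype Col, kept at 21 °C in continuous light, either wild type (called Col) or the rglg1 rglg2 double mutant (called the mutant), which lacks RGLG1 and RGLG2, RING-type ubiquitin ligases. At 10 days of age the plants were placed for 3 days on medium with 40 µM FeEDTA (+Fe) or on medium with 100 µM of a triazine sulfonate iron chelator (-Fe), and roots and leaves were taken apart. This gave 8 groups of tissue, genotype and medium with 3 arrays each, which the titles call biological replicates; no label says whether these were separate plantings, so p-values measure the spread between these samples.

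Pyruvate kinase catalyses the last step of glycolysis, in which phosphoenolpyruvate (PEP) passes its phosphate to ADP, leaving pyruvate and ATP. Plants hold many genes for it, whose enzymes work in the cytosol or in plastids, and pyruvate feeds respiration in mitochondria and fatty acid synthesis in plastids. When iron is short, Arabidopsis raises genes for iron uptake and signalling and lowers many genes for proteins that store or contain iron. The role of the AT3G49160 protein itself is not stated in the annotation used here beyond the family name. The locus lies on chromosome 3, and RefSeq lists 3 transcripts for it. Which of them the probe set reads was not analysed here. None of the 4 nearest protein-coding neighbours, EMB2261 and RID3 among them, was named by a probe set of its own.

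Values are log2 signals that the authors deposited with the median of each probe set over the 24 arrays set to 0, so they give differences between arrays and no absolute level. Array medians ran from -0.14 to 0.05. Within groups, replicates correlated at 0.852 to 0.984 over all probe sets. In mutant leaves, pairs with replicate 3 gave 0.852 to 0.905, against 0.956 and 0.967 for replicates 1 and 2, so this replicate stood apart on both media. Tissue labels were checked with marker genes. All 4 measured leaf markers of 12 listed were higher in Col +Fe leaves than in roots, by 3.76 to 5.13 log2 units, and all 3 measured root markers of 13 listed were lower there, with log2 differences from -4.85 to -4.16. The transcripts of RGLG1 and RGLG2 had 0 probe sets of their own name and were not analysed here.

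In Col roots on +Fe, AT3G49160 had centred log2 signals of 1.42, 1.33 and 0.94 in replicates 1, 2 and 3. On -Fe the signals were -0.78, -0.74 and -0.40. Every -Fe array lay below every +Fe array, with 1.33 log2 units between the lowest of one group and the highest of the other. The mean signal was lower on -Fe by 3.66-fold, or -1.87 ± 0.14 as a log2 change with its SE (n = 3 per group), which left 27.3% of the +Fe signal. Mutant roots gave signals of 0.40, 0.69 and 0.45 on +Fe and -0.65, -0.85 and -0.99 on -Fe. The groups again did not overlap, and their nearest arrays were 1.05 log2 units apart. The mean was lower by 2.54-fold (log2 -1.34 ± 0.14), which left 39.4% of the +Fe signal. A sign of RNA quality, the difference between control probe sets for 5′ and 3′ transcript ends, moved in the same arrays from 0.01 ± 0.14 (SD) on +Fe to 0.21 ± 0.02 on -Fe, and its part in the fall was not tested. As background, 20.3% of all probe sets had non-overlapping groups in Col roots and 29.3% in mutant roots.

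Leaves showed the larger falls. Col leaves gave 2.90, 2.23 and 2.11 on +Fe and -1.0, -1.37 and -1.05 on -Fe. Replicate 1 on +Fe was the highest of all 24 arrays, and the gap between the media was 3.12 log2 units. The mean was lower on -Fe by 11.8-fold (log2 -3.56 ± 0.21), which left 8.50% of the +Fe signal. Mutant leaves gave 2.86, 2.69 and 2.76 on +Fe and -0.53, -1.02 and -0.42 on -Fe, with a gap of 3.11 log2 units. The mean was lower by 10.7-fold (log2 -3.42 ± 0.21), which left 9.33%. Replicate 3 of the mutant lay between the other arrays of its group on +Fe and was the highest of its group on -Fe; without replicate 3 of both mutant leaf groups the change was -3.55 ± 0.25 in the mutant. As background, 22.1% of probe sets had non-overlapping groups in Col leaves and 11.7% in mutant leaves. In bulk tissue, fewer cells that carry the transcript and less transcript per cell cannot be told apart.

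**Figure D1:**
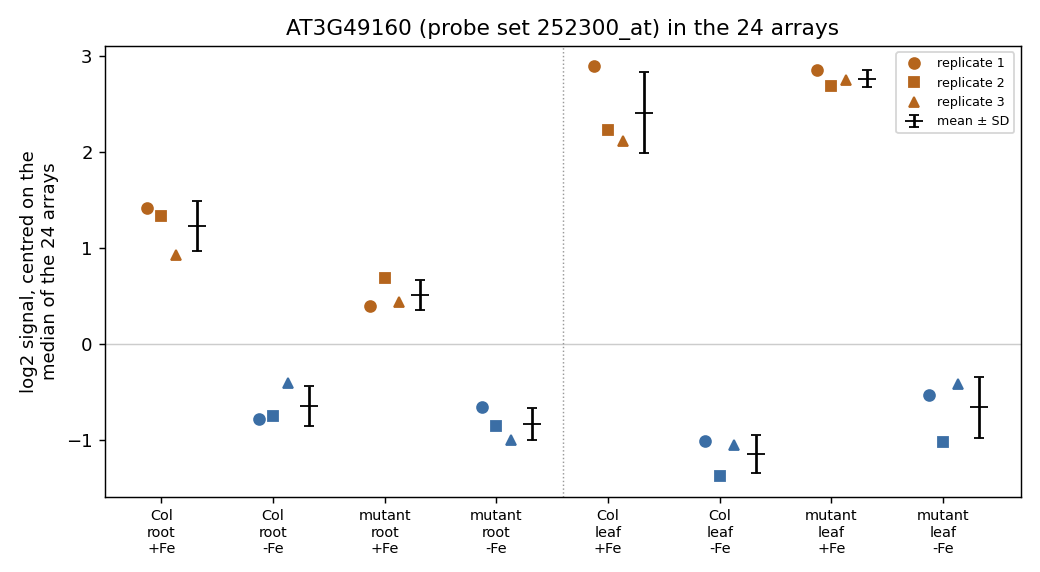
Centred log2 signal of AT3G49160 (y axis) in each of the 24 arrays, by group of genotype, tissue and medium (x axis). Symbols are replicates, orange for +Fe and blue for -Fe, and black bars are the mean ± SD of 3 arrays. All +Fe arrays lie at 0.40 or above and all -Fe arrays at -0.40 or below, with the highest values in leaves on +Fe.

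Among all probe sets, the fall of AT3G49160 was the 5th largest in Col roots, the 11th in mutant roots, the 5th in Col leaves and the 3rd in mutant leaves. Among the 9869 probe sets with a single named gene, it ranked 3rd, 5th, 1st and 1st. These ranks describe the pattern for which the gene was chosen. Only 4 probe sets had a log2 change of -1 or lower in all 4 iron comparisons, and 2 of them had a single named gene. The other named gene was AT3G43670, of the copper amine oxidase family, with log2 changes of -1.45, -1.28, -2.86 and -2.30 in Col roots, mutant roots, Col leaves and mutant leaves. One of the unnamed probe sets changed by -2.02, -1.36, -4.02 and -3.92, and the other by -1.45, -1.10, -3.20 and -2.94. AT2G36885 stayed just outside this limit with -0.99 in Col roots, as did AT5G59400 with -0.96 in mutant roots.

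Ordered by mean signal, the 8 groups ran from mutant leaves on +Fe (2.77 ± 0.09, SD, n = 3) and Col leaves on +Fe (2.41 ± 0.42) to Col roots on +Fe (1.23 ± 0.26) and mutant roots on +Fe (0.51 ± 0.16). Below them came Col roots on -Fe (-0.64 ± 0.21), mutant leaves on -Fe (-0.65 ± 0.32), mutant roots on -Fe (-0.83 ± 0.17) and Col leaves on -Fe (-1.14 ± 0.20). Neighbours in this order whose arrays overlapped were the leaf groups on +Fe, Col roots and mutant leaves on -Fe, and mutant leaves and mutant roots on -Fe. The ranges of the last neighbours, mutant roots and Col leaves on -Fe, were 0.01 log2 units apart. The 4 means on +Fe thus spread from 0.51 to 2.77, whereas the 4 means on -Fe lay between -1.14 and -0.64. Centred values do not show whether the -Fe signals lay near the background of the arrays. The part of such a floor in differences between the falls was not tested. Of the sum of squares of this gene over the 24 arrays, 77.5% went with the medium, 10.6% with the tissue by medium term and 7.24% with tissue. The genotype by tissue term held 2.28%, genotype alone 0.0030%, and 1.97% lay within groups.

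The comparison of tissues asked where the transcript was higher and whether the iron response differed between leaves and roots. It used all 24 arrays in 1 fit, and since it is not given which arrays were normalized together, levels set across tissues rest on the deposited scale. On +Fe, Col leaves had 2.27-fold more signal than Col roots (log2 1.18 ± 0.19, adjusted p = 8.69e-06), and the groups of 3 did not overlap. In the mutant on +Fe the difference was 4.78-fold (log2 2.26 ± 0.19, adjusted p = 5.04e-10), also with no overlap. Both are read against a background in which 70.6% of probe sets differed between the tissues in Col on +Fe and 67.8% in the mutant, and in which 75.1% and 69.1% had groups that did not overlap. The +Fe arrays of both comparisons also entered the falls that chose the gene, so these p-values are not independent of that choice.

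On -Fe the order of the tissues was turned in Col. Leaves lay below roots by 0.50 ± 0.19 log2 units (adjusted p = 0.0229, with 69.5% of probe sets called), and this call was lost under quantile normalization (-0.33, adjusted p = 0.159), with each array centred on its median (-0.44, adjusted p = 0.0513), without Col root -Fe replicate 3 (-0.38, adjusted p = 0.115) and without Col leaf -Fe replicate 2 (-0.39, adjusted p = 0.110). In the mutant on -Fe the difference was 0.18 ± 0.19, with a 95% interval from -0.22 to 0.57 (adjusted p = 0.421). The share of all probe sets called in that comparison was 67.9%.

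The fall on -Fe was larger in leaves than in roots. The change in leaves minus that in roots was -1.68 ± 0.27 log2 units in Col, with a 95% interval from -2.24 to -1.13, and -2.08 ± 0.27 in the mutant, with an interval from -2.64 to -1.52. Each is the difference of falls for which the gene was chosen, so it is given as a description with no test, and nothing is read from the 1.75% and 1.85% of all probe sets called in these comparisons. After quantile normalization the Col value was -1.09 ± 0.29. Without replicate 3 of both mutant leaf groups the value in the mutant was -2.20 ± 0.29. The 5′ minus 3′ difference of control probe sets for Arabidopsis transcripts (6 of each end) moved with the mutant value. It went from 0.01 ± 0.14 (SD) to 0.21 ± 0.02 on -Fe in mutant roots and from 0.01 ± 0.10 to -0.13 ± 0.07 in mutant leaves, and its part in the result was not tested.

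**Figure D2:**
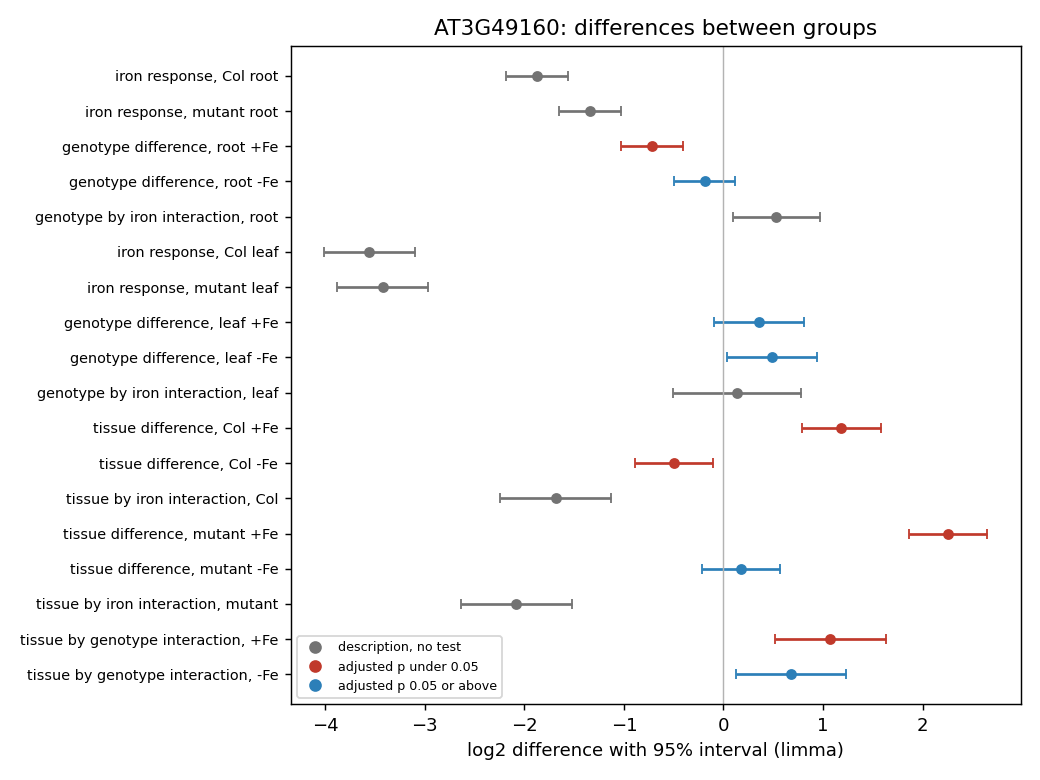
Log2 differences of AT3G49160 for each comparison (y axis), with their 95% intervals from limma (x axis). Iron responses are -Fe minus +Fe, genotype differences mutant minus Col, tissue differences leaf minus root, and interactions a response in the mutant minus that in Col or in leaves minus that in roots. The iron responses and their interactions, in grey, carry no test, and the leaf responses of -3.56 and -3.42 lie below those of roots at -1.87 and -1.34.

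The comparison of genotypes asked whether loss of both ligases moved the transcript. In roots on +Fe, AT3G49160 was lower in the mutant by 1.64-fold, a log2 difference of -0.72 ± 0.14 (n = 3 per group, adjusted p = 0.00741). The limma call was lost with a replicate block within genotype (adjusted p = 0.0761). All 3 mutant arrays (0.40 to 0.69) lay below all 3 Col arrays (0.94 to 1.42). In this comparison 10.7% of all probe sets were called, with 5.05% of all lower in the mutant, and 24.6% had groups that did not overlap. The 5′ and 3′ control difference moved with this comparison, at 0.20 ± 0.10 (SD) in Col roots on +Fe and 0.01 ± 0.14 in mutant roots on +Fe, and its part in the result was not tested. In roots on -Fe the genotype difference was -0.19 ± 0.14, with a 95% interval from -0.50 to 0.12 (adjusted p = 0.555), and 3.89% of probe sets were called.

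In leaves the mutant had the higher means, and neither difference was called. On +Fe the difference was 0.35 ± 0.21, with a 95% interval from -0.10 to 0.81 (adjusted p = 0.263). Col replicate 1 at 2.90 lay above all mutant arrays there, and Col replicates 2 and 3 lay below them. On -Fe the difference was 0.49 ± 0.21, with an interval from 0.03 to 0.94 (adjusted p = 0.126), and mutant replicate 2 at -1.02 lay just within the Col range. The shares of all probe sets called in leaves were 14.4% on +Fe and 15.9% on -Fe. On -Fe the 5′ and 3′ control difference was -0.13 ± 0.07 (SD) in mutant leaves and 0.05 ± 0.04 in Col leaves. On +Fe it was 0.01 ± 0.10 and 0.06 ± 0.06. Its part in the leaf genotype differences was not tested.

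Whether the mutant responded differently to iron loss was measured as a genotype by iron interaction, which is likewise a difference of the selecting falls and carries no test. In roots the fall was smaller in the mutant by 0.53 ± 0.20 log2 units, with an interval from 0.09 to 0.97, and with array weights the value was 0.73 ± 0.18. In leaves the interaction was 0.13 ± 0.29, with an interval from -0.51 to 0.78. As background, limma called 0.0168% of all probe sets in the root comparison. In the leaf comparison it called 0, with 910 at an unadjusted p under 0.05 and 5 called with array weights. On -Fe the 5′ and 3′ control difference was 0.21 ± 0.02 for mutant roots and 0.18 ± 0.10 for Col, so it also moved with the root interaction.

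The genotype difference had opposite signs in the tissues, and a test of that contrast was added after these values were seen. On +Fe the genotype difference of leaves minus that of roots was 1.07 ± 0.27 (adjusted p = 0.0125), with 14.1% of probe sets called. On -Fe it was 0.68 ± 0.27, with an interval from 0.12 to 1.23 (adjusted p = 0.102), and 11% were called.

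Of the 14 loci listed for the pyruvate kinase family, 4 besides AT3G49160 were measured by a probe set of their own: AT5G08570, AT5G63680, AT4G26390 and AT5G56350. In this and the other lists, measured means that a probe set named the gene alone. Probe sets with no gene name or with several may read some of the other loci. None of these 4 genes was called as lower in any of the 4 iron responses. In these, 5.17% (Col roots), 7.11% (mutant roots), 1.03% (Col leaves) and 0.427% (mutant leaves) of all probe sets were called in either direction. AT5G56350 rose in mutant roots, from 0.18, 0.04 and 0.49 on +Fe to 0.68, 0.65 and 0.65 on -Fe. That was a log2 change of 0.42 ± 0.11 (adjusted p = 0.0286), in a comparison with 2.87% of all probe sets called as higher. The call was lost with the 6 arrays alone (adjusted p = 0.0552), with all 24 arrays in 1 fit (adjusted p = 0.269), and without mutant +Fe replicates 1 or 2 or any 1 of the mutant -Fe arrays, with adjusted p from 0.0871 to 0.135. The shift of the 5′ and 3′ control difference in mutant roots, given above, is in the same arrays. In Col leaves the same gene had signals of -1.42, -1.45 and -1.36 on +Fe and -0.58, -0.46 and -0.53 on -Fe. Those arrays did not overlap, as for 22.1% of all probe sets in Col leaves, and the change of 0.89 ± 0.23 was not called (adjusted p = 0.121).

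The remaining iron responses of these 4 genes lay between -0.18 and 0.32 and were not called. Their median log2 change was 0.02 in Col roots, 0.19 in mutant roots, 0.23 in Col leaves and 0.15 in mutant leaves, against 0.01, -0.00031, 0.01 and -0.03 over all probe sets. None of their 16 genotype differences was called (adjusted p of 0.0717 or above), and 3 had an unadjusted p under 0.05. Over all probe sets, the share with such a p was 27.5% on +Fe and 17.6% on -Fe in roots. In leaves it was 31.7% on +Fe and 32.9% on -Fe. AT5G56350 in leaves on +Fe gave 0.67 ± 0.23 (adjusted p = 0.0717) and AT5G63680 gave 0.52 ± 0.24 (adjusted p = 0.156), both with mutant arrays above all Col arrays, in a comparison where 37.4% of all probe sets had non-overlapping groups and 14.4% were called. The third was AT5G08570 in roots on -Fe, with 0.26 ± 0.09 (adjusted p = 0.130). By tissue, AT5G56350, AT5G63680 and AT5G08570 were lower in Col leaves than in Col roots on +Fe, by log2 differences of -1.76 ± 0.19, -0.71 ± 0.19 and -0.60 ± 0.13, where AT3G49160 was higher. AT4G26390 gave 0.0049 ± 0.15. In that comparison 38.6% of all probe sets were lower in leaves.

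The 8 measured genes of 37 listed for the earlier steps of glycolysis were likewise not called by limma in any iron response. Of 32 single results, 6 had an unadjusted p under 0.05. Over all probe sets, the share was 16.8% in Col roots, 23.3% in mutant roots, 11.1% in Col leaves and 8.41% in mutant leaves. The log2 changes of the 8 genes lay between -0.26 and 0.43, the highest being that of AT1G76550, a subunit gene of the pyrophosphate-dependent phosphofructokinase, in Col leaves (0.43 ± 0.13, adjusted p = 0.213). Among genotype differences, 1 of the 8 was called. AT5G42740, the cytosolic phosphoglucose isomerase, was higher in mutant leaves on -Fe by 0.33 ± 0.10 (adjusted p = 0.0462, with 6.18% of all probe sets called as higher), and the call was lost in 13 of 21 other settings, with adjusted p up to 0.145. The 5′ and 3′ control difference between these leaf groups, given above, is in the same arrays.

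Of 44 genes listed for PEP and pyruvate metabolism, 9 were measured, and 0 were called in the iron responses by limma. Of 36 single results, 4 had an unadjusted p under 0.05, against shares of 8.41% to 23.3% over all probe sets. PPDK, which interconverts pyruvate and PEP by a route other than pyruvate kinase, had log2 changes of -0.53 ± 0.17 in Col roots (adjusted p = 0.107) and -0.55 ± 0.17 in mutant roots (adjusted p = 0.0720). In leaves the values of PPDK were 0.28 ± 0.27 and 0.30 ± 0.27. Genes for subunits of the pyruvate dehydrogenase complex, which turns pyruvate into acetyl-CoA, lay between -0.18 and 0.16. LDH, the lactate dehydrogenase gene, gave 0.12, 0.28, 0.0053 and -0.04 in the order of Col roots, mutant roots, Col leaves and mutant leaves. AT4G22310, of the mitochondrial pyruvate carrier family, was higher in mutant leaves on -Fe by 0.37 ± 0.11 (adjusted p = 0.0412, with 6.18% of all probe sets called as higher). The call was lost in 13 of 21 other settings, and the 5′ and 3′ control difference between these leaf groups, given above, is in the same arrays.

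Genes listed for iron storage or as lowered by iron loss had 4 measured members of 12. In Col leaves AT3G43670 fell by 2.86 ± 0.13 and SAPX, the stromal ascorbate peroxidase, by 2.95 ± 0.21, in a comparison where 0.522% of probe sets were called as lower. In mutant leaves, with 0.27% called as lower, their log2 changes were -2.30 and -2.06. In roots AT3G43670 changed by -1.45 in Col and -1.28 in the mutant. SAPX in Col roots changed by -0.55 ± 0.13 (adjusted p = 0.0250), a call lost in 5 of 20 other settings with adjusted p up to 0.152, and in mutant roots by -0.43 ± 0.13 (adjusted p = 0.0647). In leaves on -Fe both were higher in the mutant than in Col, AT3G43670 by 1.30 ± 0.13 and SAPX by 1.15 ± 0.21, and on +Fe AT3G43670 was higher by 0.74 ± 0.13. These 3 calls held in all 21 other settings. The 5′ and 3′ control difference moved with the -Fe comparison, at -0.13 ± 0.07 (SD) in mutant leaves and 0.05 ± 0.04 in Col leaves. Its part in these results was not tested. Of all probe sets, 6.18% were called as higher in mutant leaves on -Fe, and 14.4% were called in either direction on +Fe. AT3G43630 and AT3G43660 were not called in any of the 4 responses, with values from -0.21 to 0.21. The list was written with earlier results on AT3G43670 and SAPX known and gives no independent evidence of direction.

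**Figure D3:**
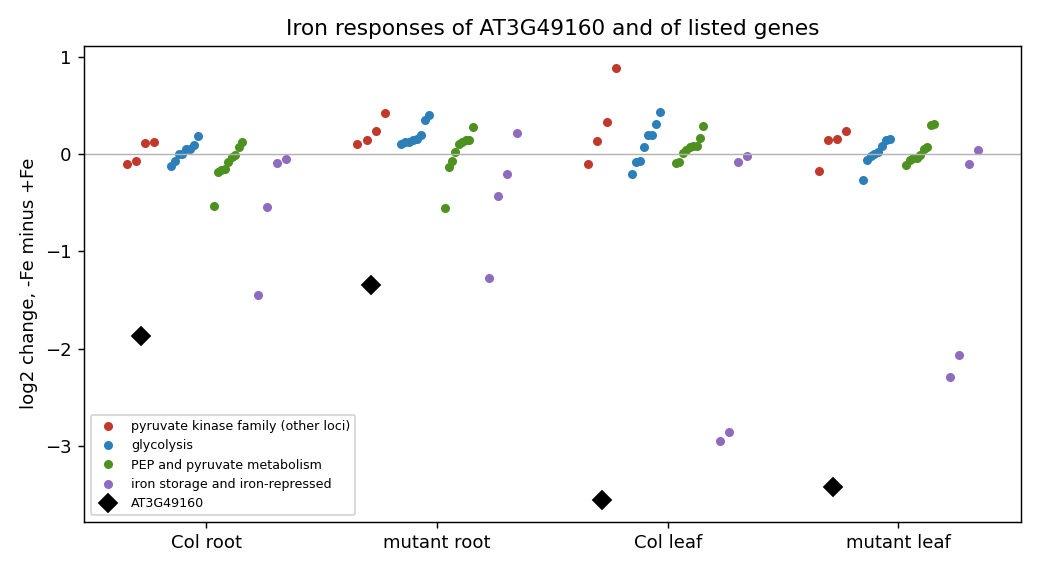
Log2 change on -Fe (y axis) in each genotype and tissue (x axis) for AT3G49160 (diamonds) and for the measured genes of 4 lists (points, 1 per probe set). AT3G49160 lies at -1.87, -1.34, -3.56 and -3.42, and the other pyruvate kinase genes between -0.18 and 0.89.

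Leaf markers moved with the falls in roots. All 4 measured leaf markers fell in Col roots, by 0.51 to 0.97 log2 units, and all 4 fell in mutant roots, by 0.60 to 0.95, in comparisons where 2.97% and 4.24% of probe sets were called as lower. Their mean centred signal ranged from -2.17 to -1.98 in Col roots on +Fe and from -3.09 to -2.66 on -Fe. In mutant roots it ranged from -2.17 to -2.07 on +Fe and from -3.04 to -2.84 on -Fe. The log2 changes of AT3G49160 in roots were -1.87 and -1.34. Its excess in Col leaves over Col roots on +Fe was 1.18, against 3.76 to 5.13 for the 4 leaf markers. Whether leaf transcripts in the root samples had a part in its root falls was not tested. In leaves PSAN alone of the 4 fell in Col (-1.19 ± 0.19), and in the mutant its change was -0.98 ± 0.19 (adjusted p = 0.0511), with the other 3 not called either. The 3 measured root markers were not called by limma in any iron response. Of 12 single results, 0 had an unadjusted p under 0.05, against shares of 8.41% to 23.3% over all probe sets.

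Genes with the most similar pattern were found by Pearson's r with AT3G49160 over the 24 arrays after subtraction of each tissue's mean. These points fall into a +Fe and a -Fe cluster and share arrays, so r mainly reflects the difference between the media and is given as a description. Of 17809 other probe sets, 23 had r of 0.9 or above and 18 had r of -0.9 or below. The 5 named genes with the highest r were AT5G59400 (0.963), AT3G43670 (0.954), AT2G36885 (0.952), AT1G68650 (0.949) and AT5G51010 (0.944), which encodes a rubredoxin-like protein. The same genes were the 5 highest without replicate 3 of both mutant leaf groups, over 22 arrays. Within groups, where group means are removed, their r with AT3G49160 ranged from -0.24 to 0.42.

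AT5G59400 was closest. Its centred signals in Col leaves were 0.66, 0.91 and 0.75 on +Fe and -1.53, -1.38 and -1.58 on -Fe. In Col roots they were 0.79, 0.74 and 0.25 on +Fe and -0.25, -1.01 and -0.33 on -Fe. It too had its larger falls in leaves, with log2 changes of -2.27 in Col and -1.61 in the mutant against -1.12 and -0.96 in roots. Between Col leaves and Col roots on +Fe its log2 difference was 0.18, against 1.18 for AT3G49160. AT5G51010 by contrast was higher in leaves than in roots by 3.49 log2 units in Col on +Fe.

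The 5 named genes with the lowest r were IMA1 (AT1G47400, -0.986), AT5G05250 (-0.981), AT3G56360 (-0.953), BHLH101 (-0.951) and PYE (-0.945). IMA1 encodes a peptide that signals iron shortage, and BHLH101 and PYE encode transcription factors of the iron response. They were also the 5 lowest over 22 arrays. IMA1 on +Fe had a mean of -1.41 ± 0.44 (SD) in mutant roots against -2.41 ± 0.35 for Col, where the mean of AT3G49160 was the lower one in the mutant. In the same groups AT5G05250 had means of -0.88 in the mutant and -1.40 in Col. The other genes hardly differed, with -1.60 and -1.56 for BHLH101, -0.74 and -0.74 for PYE, and -0.58 and -0.54 for AT3G56360. These differences were not tested. Within groups the r of the 5 genes with AT3G49160 ranged from -0.63 for IMA1 to -0.24 for BHLH101.

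**Figure D4:**
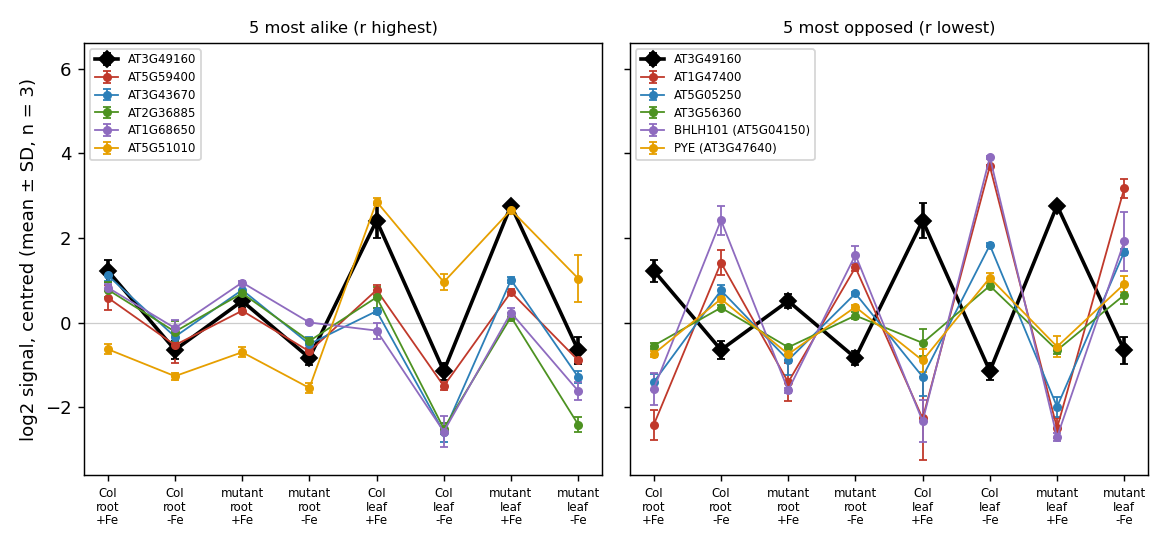
Mean centred log2 signal ± SD (y axis, n = 3 arrays) in the 8 groups (x axis) for AT3G49160 in black and for the 5 named genes with the highest r (left) and the lowest r (right). The left-hand genes fall and the right-hand genes rise on -Fe in each genotype and tissue.

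Without subtraction of tissue means, so that the difference between tissues counts as well, AT5G59400 again had the highest r of the named genes (0.901), followed by AT3G08890 (0.880), AT4G36050 (0.829), AT1G51550 (0.828) and AT2G03270 (0.802). AT3G08890 changed by -0.55, -0.42, -0.62 and -0.62 in Col roots, mutant roots, Col leaves and mutant leaves, far less than AT3G49160. Over the 8 group means the highest were AT3G30460 (0.961), IAGLU (0.935), which encodes an auxin glucosyltransferase, AT3G08890 (0.930), AT5G59400 (0.925) and AT3G51560 (0.921). The changes of AT3G30460 on -Fe lay between -0.41 and -0.20, so a high r over 8 means did not go with a fall of like size.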

How the data were processed

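Per the labels' protocols, RNA was isolated with Trizol and labelled as biotin cRNA. The authors deposited 1 table of 24 arrays in log2 units; the submitters' processing notes name RMA, whose version is not given in the sources used here. The median of each probe set over the 24 arrays was 0 within 5e-07, and when this centring was done is not given there either. Probe sets were named from the platform annotation through RefSeq (TAIR10.1, for names only). Of 17854 probe sets, 44 controls were left out, and of the other 17810, 9869 had 1 gene, 353 several and 7588 none; 9822 of the single genes matched RefSeq. Sequences of the locus were not used here.

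Linear models with moderated variances (lmFit, then eBayes) came from limma 3.58.1 under R 4.3.3, with 1 mean per group, on all 17810 probe sets, with 12 arrays per tissue (8 residual degrees of freedom) or, between tissues, 24 arrays (16). P-values were two-sided and adjusted by the Benjamini-Hochberg method, with calls at an adjusted p under 0.05. Interactions with iron were fitted too, but are printed without p, since they are differences of the falls that chose the gene. The code was tested on simulated data. No filter on dim probe sets can be made on centred values, and the number of arrays limits the precision. Alternatives were quantile normalization, centring of each array, array weights, replicate blocks, other sets of arrays, a filter on SD and leaving out each array.

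By correlated deviations from the group means, equal replicate numbers paired the arrays most clearly between mutant leaves on +Fe and -Fe (r = 0.391 to 0.599). Between Col leaves on +Fe and -Fe, r ranged from 0.05 to 0.34, and between Col roots on +Fe and -Fe from -0.08 to 0.42. The main fits used no pairing. The gene, the gene lists and the tests were chosen with earlier results of these data known. Named genes were the members of the lists, the 5 genes with the highest and the lowest r (or the highest, for 2 further measures), and those with a fall of at least 1 log2 unit in all 4 iron responses.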

Additional observations from a re-analysis of the deposited data

Results flagged for a closer look

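The iron response of AT3G49160 was larger in leaves than in roots in both genotypes. The change in leaves minus that in roots was -1.68 ± 0.27 log2 units in Col and -2.08 ± 0.27 in the mutant. These values are differences of the falls for which the gene was chosen, so they are a description and no independent test.

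The genotype difference on +Fe also differed between tissues. It was -0.72 in roots and 0.35 in leaves, where limma did not call it (adjusted p = 0.263). The test of leaves against roots, added after these values were seen, gave 1.07 ± 0.27 (adjusted p = 0.0125), with 14.1% of all probe sets called. The 5′ and 3′ control difference moved with the root comparison, and its part was not tested. Groups of 3 arrays are too small for a test of single outlying arrays.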

How the results depend on the processing

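The 4 falls of AT3G49160 kept their direction in every alternative, and the only one to move by more than the spread between replicates was that of Col leaves, at -3.19 after quantile normalization. Leaving out 1 array gave -2.02 to -1.78 in Col roots, -1.43 to -1.25 in mutant roots, -3.71 to -3.32 in Col leaves and -3.54 to -3.24 in mutant leaves. The genotype difference in roots on +Fe was -0.87 to -0.62 without single arrays (adjusted p up to 0.0427) and lost its call with the replicate block within genotype (-0.71, adjusted p = 0.0761); the shared replicate block changed no call of this gene. The root genotype by iron interaction, given as a description, was 0.73 with array weights. The tissue difference of Col on -Fe lost its call after quantile normalization (-0.33) and with arrays centred on their medians (-0.44), and ranged from -0.57 to -0.38 without single arrays. The Col tissue by iron interaction, also a description, was -1.09 after quantile normalization. Calls among the listed genes over 8 comparisons, 13 as reported, were 50 with array weights and 22 with the block within genotype. Of all 17810 probe sets, 2557 differed between genotypes in leaves on +Fe and 2840 on -Fe as reported. With array weights these counts were 8248 and 6628, and with that block 4103 and 3676. In roots they were 1913 and 693 as reported, 5634 and 1921 with array weights, and 1121 and 308 with that block. Counts over all probe sets in the iron responses depended on the setting too. They ranged from 514 to 1578 (921 as reported) in Col roots, 592 to 5097 (1266) in mutant roots, 90 to 766 (184) in Col leaves and 38 to 1543 (76) in mutant leaves. For roots on +Fe, 728 to 5634 probe sets (1913) differed between genotypes, and 0 to 393 (3) were called in the root interaction. The highest count came with array weights in each case. The cause of these shifts was not tested.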
